A study of Mus musculus with 24 samples.

Results

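The 10 genes described here act in the licensing of DNA replication origins, and their mRNA levels were compared between mouse adrenal glands and transgenic neuroblastomas. They were taken by symbol from a table of 21833 protein-coding genes: Mcm2, Mcm3, Mcm4, Mcm5, Mcm6 and Mcm7, which encode the subunits of the MCM2-7 helicase, Orc1, Cdc6 and Cdt1, which load the helicase, and Mcm10, which acts when it is activated. All 10 genes had a row in the table. Poly(A)-enriched, strand-specific RNA-seq had been done on 24 tissue samples. AG were adrenal glands of mice labelled Cre-negative (CRE -, n = 3). AGM were adrenal glands of mice with 1 allele of a human MYCN transgene and Cre (MYCN +/-, CRE +, n = 5), which had no tumor. TI were neuroblastomas of mice with a human IGF2BP1 transgene and Cre, 7 labelled IGF2BP1 +/+ and 1 labelled IGF2BP1 +/-. TIM were neuroblastomas of mice with both transgenes and Cre (IMP1/MYCN, CRE +, n = 8), IMP1 being another name of IGF2BP1. Both transgenes sat behind a stop cassette in the Rosa26 locus, on a C57Bl6/N background, and Cre was expressed from the Dbh promoter, which is active in the sympatho-adrenal lineage. Only cells of that lineage were therefore meant to express a transgene, whereas the samples were pieces of whole tissue. Animal ages were not given in the labels. Per the study, the MYCN mice were culled at a later age than the homozygous IGF2BP1 mice, and median survival was shortest with both transgenes. Age therefore differed between AGM, TI and TIM and cannot be told apart from genotype.

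Licensing is the step that makes an origin competent to fire. In late mitosis and G1 the origin recognition complex, of which Orc1 is the largest subunit, binds DNA and recruits Cdc6. Cdt1 then brings in MCM2-7, and a pair of these rings is closed around the double helix. In S phase the kinases CDK and DDK, together with Cdc45, the GINS complex and Mcm10, turn the loaded rings into moving helicases, and Geminin (Gmnn) and a CUL4-DDB1 ubiquitin ligase keep Cdt1 from loading more. Most licensing genes are transcribed under control of E2F factors when cells pass from G1 into S phase, and quiescent cells lose their products. MCM proteins are therefore used as markers of proliferation in tumor tissue.

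Values are FPKM, which scale reads by gene length and by a scaled library size, so that levels of different genes are comparable per length. With 126 genes of over 1000 FPKM in any library set aside, the libraries held between 12334076 and 23683176 reads. All values over 1000 FPKM were in AGM and TIM, since the highest value was 631 FPKM in AG and 926 FPKM in TI. With these genes kept, the reads recovered from FPKM reached 1170004708 in AGM and 888626365 in TIM, against at most 17893013 in AG and 21353172 in TI. Comparisons of AGM or TIM with AG or TI, and the marker sums below, carry this difference. Columns of the table named the group but not the sample, and libraries are therefore lettered within each group, without a link to the sequencing run or the zygosity. Per the labels, all AG samples were in run 1 and all AGM samples in run 2, and TIM had no sample in run 1. Neither AGM vs AG nor TIM vs AG can therefore be told apart from a difference between runs. TI had 6 of 8 samples in run 1, so TIM vs TI and the interaction of the 4 groups are largely mixed with run as well. TIM vs AGM is mixed with run in part, since 5 of 8 TIM samples were in run 3, which held no AGM sample. The tissue labels were checked against marker genes. The summed level of 8 adrenal cortex genes was 645.5 to 667 FPKM in AG and 4293 to 5373 FPKM in AGM, but 0.0173 to 10.1 FPKM in TI and 0.281 to 9.28 FPKM in TIM. Cyp11b1, which makes the last step of corticosterone synthesis, was listed at 0 in 6 TI libraries and 1 TIM library. The 9 genes of the sympatho-adrenal lineage summed to 141 to 203 FPKM in AG, 1283 to 2159 FPKM in AGM, 207 to 1793 FPKM in TI and 215 to 4688 FPKM in TIM, and all 9 reached 1 FPKM in each group.

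The members lie on 8 chromosomes of the GRCm39 assembly (GENCODE M39). Mcm3 (chromosome 1, 20870791 to 20890536) and Mcm6 (chromosome 1, 128259311 to 128287516) are both on the minus strand. Mcm5 (75836140 to 75856231) and Cdt1 (123294703 to 123300293) share chromosome 8 on the plus strand. The others are Mcm10 on chromosome 2 (4994516 to 5017629, minus strand), Orc1 on chromosome 4 (108436540 to 108473245, plus strand), Mcm7 on chromosome 5 (138162844 to 138170684, minus strand), Mcm2 on chromosome 6 (88860452 to 88875762, minus strand), Cdc6 on chromosome 11 (98798507 to 98814766, plus strand) and Mcm4 on chromosome 16 (15440211 to 15455264, minus strand). The start of Mcm4 lies 434 bases from that of Prkdc, which encodes the catalytic subunit of the DNA-dependent protein kinase and is read in the opposite direction. Mcm7 overlaps Cops6 by 475 bases and Ap4m1 by 448 bases on the opposite strand.

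Promoter sequences were read from RefSeq, in windows from 250 bases before to 50 bases after each annotated start on GRCm38.p6, an older build than the one used for the expression table. Windows were found for 9 of the 10 genes, 10 windows in all, with a second one for Mcm7. The E2F consensus was searched on both strands as TTT, then 2 bases that are each C or G, then CGC. It was present in windows of 7 of the 9 genes, against 2.26% of 32851 windows of all genes. The second Mcm7 window and the windows of Mcm2 and Mcm10 held no match. Members are counted per gene here, whereas the share of all genes is per window. With the first T left free, the count was again 7 of 9, against 9.57% of all windows. The E-box CACGTG, the motif of MYC family factors, was in none of the 9, against 7.15% of all windows. CCAAT was found for 7 genes (37.4% of all windows) and the cell cycle element TTTGAA (CHR) for Mcm2 alone (17.9%). A match is a stretch of letters, and binding was not measured. The 250 bases upstream of the start are printed for the 5 genes with an E2F match there, and for Mcm2, whose window held none, with the matches in capitals.

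Mcm5: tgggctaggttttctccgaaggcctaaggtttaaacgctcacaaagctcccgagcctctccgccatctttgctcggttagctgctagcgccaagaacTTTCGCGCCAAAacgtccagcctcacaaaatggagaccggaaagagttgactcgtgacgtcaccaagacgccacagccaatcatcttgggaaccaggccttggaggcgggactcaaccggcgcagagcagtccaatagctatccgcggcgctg
Mcm6: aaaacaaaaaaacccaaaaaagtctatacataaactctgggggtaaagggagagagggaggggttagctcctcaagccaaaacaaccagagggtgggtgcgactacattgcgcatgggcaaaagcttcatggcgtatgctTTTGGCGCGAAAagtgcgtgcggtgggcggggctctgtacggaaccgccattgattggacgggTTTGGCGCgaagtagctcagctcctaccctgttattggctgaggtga
Mcm7: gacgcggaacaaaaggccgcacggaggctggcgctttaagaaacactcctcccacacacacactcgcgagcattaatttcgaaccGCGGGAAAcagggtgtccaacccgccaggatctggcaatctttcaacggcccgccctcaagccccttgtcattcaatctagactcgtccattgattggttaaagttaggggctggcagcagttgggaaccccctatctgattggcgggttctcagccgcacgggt
Cdc6: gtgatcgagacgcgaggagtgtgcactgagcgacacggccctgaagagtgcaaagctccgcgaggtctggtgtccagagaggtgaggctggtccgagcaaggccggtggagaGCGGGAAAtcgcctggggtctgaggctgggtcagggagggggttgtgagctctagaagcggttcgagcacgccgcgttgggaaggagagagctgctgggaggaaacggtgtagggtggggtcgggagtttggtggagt
Orc1: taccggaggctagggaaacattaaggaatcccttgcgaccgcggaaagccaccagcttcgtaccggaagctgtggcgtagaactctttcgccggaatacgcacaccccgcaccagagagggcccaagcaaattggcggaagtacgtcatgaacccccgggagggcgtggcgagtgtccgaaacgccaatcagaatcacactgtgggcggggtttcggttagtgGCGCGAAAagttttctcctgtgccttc
Mcm2: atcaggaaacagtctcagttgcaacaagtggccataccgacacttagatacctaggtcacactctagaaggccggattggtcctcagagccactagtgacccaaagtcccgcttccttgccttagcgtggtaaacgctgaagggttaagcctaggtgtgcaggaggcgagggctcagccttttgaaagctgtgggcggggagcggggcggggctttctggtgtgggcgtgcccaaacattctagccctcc

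These windows are chr8:75109259-75109508, plus strand (Mcm5), chr1:128359706-128359955, minus strand (Mcm6), chr5:138171884-138172133, minus strand (Mcm7), chr11:98907901-98908150, plus strand (Cdc6), chr4:108579204-108579453, plus strand (Orc1) and chr6:88898781-88899030, minus strand (Mcm2). Mcm5 and Mcm6 each hold 2 matches that overlap on opposite strands, beginning 153 and 149 bases before the start in Mcm5 and 110 and 106 bases before it in Mcm6. A further match in Mcm6 begins 47 bases before the start. In Mcm7 the match begins 165 bases, in Cdc6 138 bases and in Orc1 27 bases before the start. The matches of Mcm3 and Cdt1 and a second match of Mcm7 lie after the start and are not shown.

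In AG the helicase subunits were expressed at a low and even level. The summed level of Mcm2 to Mcm7 was 13.5 ± 0.795 FPKM (SD, n = 3), and Mcm7 was the highest and Mcm5 the lowest of the 6 by mean. The loading factors lay below this. Cdt1 had a mean of 0.737 ± 0.115 FPKM (SD, n = 3), Cdc6 0.0785 ± 0.0247 FPKM, Mcm10 0.0713 ± 0.0169 FPKM and Orc1 0.0388 ± 0.0142 FPKM. The order of the group means was the same for 9 of the 10 genes, from AGM over AG and TIM to TI. Mcm10 differed from this only in that its means in AG and AGM, 0.0713 and 0.0789 FPKM, stood in the other order and did not differ beyond their spread. In tissue samples a lower level can come from fewer cells that express a gene or from less RNA per cell, which cannot be told apart.

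**Figure D1:**
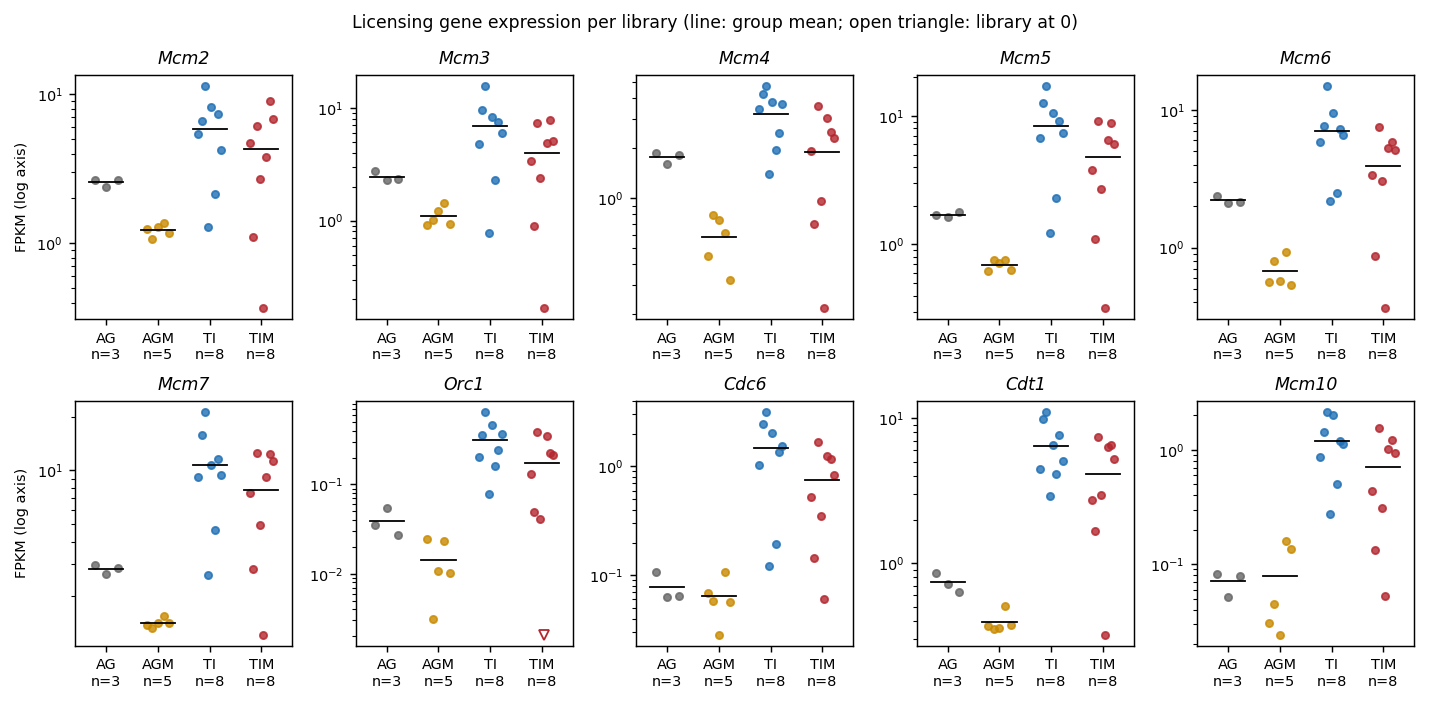
FPKM of the 10 licensing genes in each library (points, log axis) by group, with the group mean as a line and libraries at 0 as open triangles. AG libraries spread over at most 2.02-fold for a gene and AGM libraries over at most 7.93-fold (both Orc1), whereas TIM libraries spread over 46.3-fold for Mcm3, and Orc1 was at 0 in TIM e.

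The first comparison asked how the genes differed between IGF2BP1-driven tumors and glands. In TI, 3 of the 6 helicase subunits (Mcm5, Mcm6 and Mcm7) rose against AG, as did Cdc6, Cdt1 and Mcm10. Of all 10171 tested genes, 24.6% were called higher. Tests were made with limma on log2(FPKM + 1), with p-values adjusted over all tested genes. Mcm10, Cdc6 and Cdt1 reached 1 FPKM only in tumors and so entered the fit through the tumor libraries alone. A gene that enters in this way has to be high in tumors, and the calls of these 3 genes against glands are therefore not counted with those of the subunits.

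Mcm5, a subunit at the gate through which DNA enters the ring, was 1.70, 1.64 and 1.79 FPKM in the AG libraries a to c. In TI its lowest, median and highest values were 1.24, 8.27 and 17.2 FPKM. All but 1 of the 8 TI libraries lay above every AG library, and TI d lay below them. The mean was 4.91-fold that of AG, and the difference was 1.53 on the log2(FPKM + 1) scale (SE 0.56, adjusted p = 0.0263).

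Mcm6 was 2.35, 2.10 and 2.16 FPKM in AG. Its lowest, median and highest values in TI were 2.17, 6.94 and 15.0 FPKM. TI d lay within the range of AG and the other 7 libraries above it, with a difference of 1.16 (SE 0.46, adjusted p = 0.0396). Mcm7 was 2.94, 2.65 and 2.86 FPKM in AG and 2.61, 10.1 and 21.2 FPKM (lowest, median, highest) in TI. TI d again lay just below AG, and the difference was 1.42 (SE 0.48, adjusted p = 0.0164).

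Mcm2, Mcm3 and Mcm4 did not pass the threshold in TI vs AG. Mcm2, which binds histones as well as DNA, was 2.40 to 2.67 FPKM in AG and 1.29 to 11.4 FPKM in TI, with a difference of 0.76 (95% confidence interval -0.25 to 1.77, adjusted p = 0.199). Mcm3 was 2.30 to 2.72 FPKM in AG and 0.774 to 15.7 FPKM in TI, with a difference of 0.92 (-0.22 to 2.06, adjusted p = 0.169). For both, TI d and TI f lay below every AG library and the other 6 above. Mcm4 was 1.89, 1.60 and 1.82 FPKM in AG and 1.40, 3.58 and 4.77 FPKM (lowest, median, highest) in TI, with a difference of 0.56 (-0.089 to 1.20, adjusted p = 0.141).

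TI lay above AG in every library for Mcm10, Cdc6, Cdt1 and Orc1 and for none of the 6 subunits. The same held for 23.8% of all tested genes, a share that cannot be read against these 4, since 3 entered the fit through the tumors and Orc1 did not enter it. Cdt1, which brings the helicase to the origin, was 0.858, 0.723 and 0.630 FPKM in AG and 2.93, 5.83 and 11.05 FPKM (lowest, median, highest) in TI. Its mean was 8.76-fold that of AG, with a difference of 2.01 (SE 0.41, adjusted p = 0.000254). This was the largest difference of the 9 tested genes on the log2(FPKM + 1) scale, whereas the ratio of means was larger for Cdc6 (18.9) and Mcm10 (16.7). Cdc6, an ATPase that works with ORC, was 0.107, 0.0636 and 0.0649 FPKM in AG, from 60, 35 and 36 reads. In TI it was 0.123 FPKM at the lowest, 1.45 FPKM at the median and 3.16 FPKM at the highest, a difference of 1.07 (SE 0.32, adjusted p = 0.00695). TI d and TI f, at 0.123 and 0.194 FPKM, were close to AG, and the other 6 TI libraries were at 1 FPKM or more. Mcm10 was 0.0824, 0.0519 and 0.0796 FPKM in AG and 0.274, 1.17 and 2.14 FPKM (lowest, median, highest) in TI, a difference of 0.97 (SE 0.25, adjusted p = 0.00255).

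Orc1 had no library at 1 FPKM and was tested by itself, with an exact permutation test adjusted over 5 comparisons. It was 0.0348, 0.0546 and 0.0271 FPKM in AG, from 13, 20 and 10 reads. In TI its lowest, median and highest values were 0.0793, 0.302 and 0.649 FPKM, from 30 to 226 reads, all above AG. The difference in mean log2(FPKM + 1) was 0.33 (exact permutation, two-sided, p = 0.0121, adjusted p = 0.0303, smallest possible p = 0.00606).

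Some calls in TI vs AG moved with single libraries of either group and with the method. Cdt1, Cdc6 and Mcm10 were called in all 11 fits that each left out 1 library. These 3 genes had passed the filter through the tumors alone, so that count does not measure how firmly they stood. Mcm6 was called in 3 of the 11 fits (adjusted p up to 0.103, without AG b). It lost the call without any single AG library, and also without TI b (0.0572), TI c (0.0681), TI e (0.0632), TI g (0.0556) or TI h (0.0518). Mcm5 lost the call without AG a (0.0706), AG b (0.0745) or AG c (0.067), and Mcm7 lost it without AG b (0.0551). With limma-voom on recovered reads only Cdt1 and Mcm7 were called, and Mcm10 (adjusted p = 0.0691), Mcm5 (0.0761), Mcm6 (0.105) and Cdc6 (0.172) were not. Without TI d, the lowest TI library for all 10 genes, Mcm3 was called as well (adjusted p = 0.0468).

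Tumors with both transgenes were compared with glands in the same fit. None of the 6 helicase subunits passed the threshold in TIM vs AG, whereas 22.5% of all tested genes were called higher. Cdt1 and Mcm10, which entered the fit through the tumors alone, were called higher. No gene of the 10 had TIM above every AG library, because TIM e, the lowest TIM library for all 10 genes, lay among or below the AG libraries.

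Cdt1 was 0.322 FPKM at the lowest, 4.07 FPKM at the median and 7.42 FPKM at the highest in TIM. The lowest was TIM e, and the other 7 libraries lay above AG. The difference was 1.36 (SE 0.41, adjusted p = 0.00812). It was called in all 11 fits without 1 library, which Cdt1 also entered through the tumors alone. Mcm10 was 0.0529, 0.687 and 1.56 FPKM (lowest, median, highest), with a difference of 0.60 (SE 0.25, adjusted p = 0.0498), and was called in only 3 of the 11 fits. Its largest adjusted p there was 0.122, without AG b.

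For the subunits, the TIM libraries lay on both sides of AG. Mcm5 was 0.319, 4.94 and 9.21 FPKM (lowest, median, highest), with 6 libraries above and 2 below AG, and its difference was 0.81 (95% confidence interval -0.35 to 1.98, adjusted p = 0.237). Mcm7 was 1.21, 8.35 and 12.6 FPKM, with a difference of 0.97 (-0.029 to 1.97, adjusted p = 0.0982), and was called without TIM e (adjusted p = 0.0176). Mcm4 had the smallest difference, -0.050 (-0.70 to 0.59, adjusted p = 0.916), with 5 TIM libraries above and 3 below AG. Its lowest, median and highest values in TIM were 0.217, 2.13 and 3.59 FPKM. Mcm2, Mcm3 and Mcm6 had differences of 0.33, 0.26 and 0.40 with adjusted p of 0.606, 0.725 and 0.499. Cdc6, at 0.0609, 0.683 and 1.67 FPKM (lowest, median, highest), had a difference of 0.63 (-0.029 to 1.29, adjusted p = 0.104).

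Orc1 was listed at 0 in TIM e and reached 0.391 FPKM in TIM c, with a median of 0.173 FPKM. Its difference from AG was 0.17 (exact permutation, two-sided, p = 0.158, adjusted p = 0.158). At 0 reads in TIM e, a level of up to 3 reads was not detectable.

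**Figure D2:**
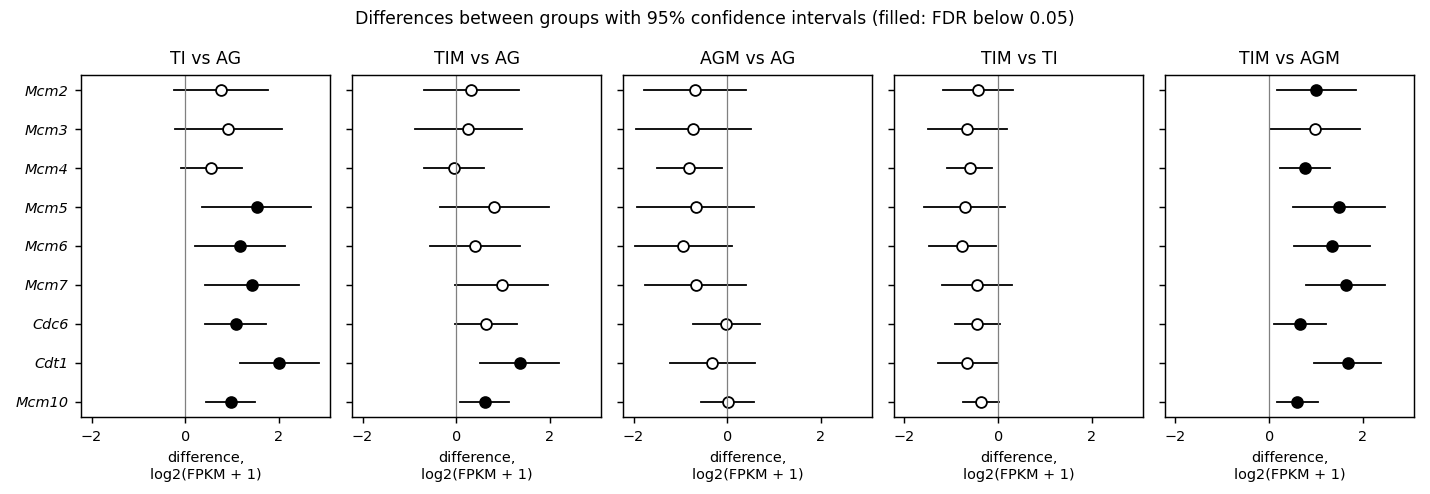
Differences in log2(FPKM + 1) between groups for the 9 tested genes, with 95% confidence intervals, filled where the limma adjusted p was below 0.05. In TIM vs AGM all but Mcm3 are filled, and in AGM vs AG and TIM vs TI none is.

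AGM vs AG asked how the genes differed in glands that carry MYCN without a tumor. The values of Mcm2 to Mcm7, Cdt1 and Orc1 were lower in every AGM library than in every AG library. These were 8 of the 10 genes, 7 of them among the tested genes, and the same held for 32.5% of all tested genes. None of the 9 genes passed the threshold in the fit of all 4 groups, where 14.0% of all tested genes were called lower, and 1 of them (Mcm4) had an unadjusted p below 0.05. That fit shares 1 spread between groups whose libraries varied very differently, and the median variance of a gene was 0.00282 in AG, 0.0195 in AGM, 0.0581 in TI and 0.0986 in TIM.

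Mcm6 was 0.566, 0.796, 0.569, 0.933 and 0.532 FPKM in the AGM libraries a to e, against 2.10 to 2.35 FPKM in AG. The highest AGM library was thus far below the lowest AG library. The mean ratio was 0.308, and the difference was -0.94 (95% confidence interval -1.98 to 0.10, adjusted p = 0.169). Mcm4, a subunit that DDK phosphorylates when the helicase is activated, was 0.447, 0.792, 0.739, 0.621 and 0.323 FPKM in AGM against 1.60 to 1.89 FPKM in AG, a difference of -0.81 (-1.51 to -0.12, adjusted p = 0.0734). Mcm5 was 0.621, 0.753, 0.714, 0.758 and 0.637 FPKM in AGM, a ratio of 0.407 to AG. The other subunits kept ratios of 0.448 (Mcm3), 0.478 (Mcm2) and 0.498 (Mcm7). Cdt1 was 0.369, 0.354, 0.357, 0.504 and 0.377 FPKM in AGM, a ratio of 0.532.

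When only the AG and AGM libraries entered the fit, the 6 subunits and Cdt1 were called lower, 7 of the 9 tested genes, with adjusted p between 2.08e-05 (Mcm5) and 0.00123 (Cdt1). That fit called 32.9% of all tested genes lower. Cdc6 and Mcm10 were not called in either fit, and their values rested on few reads. Cdc6 was 0.0684, 0.0583, 0.0286, 0.108 and 0.0571 FPKM in AGM, from 12 to 49 reads, and Mcm10 was 0.0305, 0.0453, 0.0243, 0.159 and 0.135 FPKM, from 15 to 106 reads. Orc1 had between 1 and 7 reads in the AGM libraries, and its difference was -0.034 (exact permutation, two-sided, p = 0.0357, adjusted p = 0.0595, smallest possible p = 0.0179).

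AGM libraries also held more of the cortex genes and of the sympatho-adrenal genes than AG (see the sums above), and more of 4 adipocyte genes, with sums of 204 to 1029 FPKM against 29.9 to 140 FPKM. The part of this in the licensing values was not tested. The scale matters too. With FPKM recomputed from the reads outside the 126 extreme genes, the median of all tested genes in AGM vs AG moved to -0.26, and in TIM vs AGM to 0.21. Relative to that median, the 9 licensing genes lay between -0.88 and 0.23 in AGM vs AG, with a median of -0.68, and only Mcm10 and Cdc6 lay above it, by 0.23 and 0.21. This scale called 932 genes higher and 3475 lower in AGM vs AG, against 1488 and 1420 on the deposited one.

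TIM and TI were compared as tumors with and without the MYCN transgene. They also differed in IGF2BP1 dose, since TI samples were IGF2BP1 +/+ in 7 of 8 cases, whereas in TIM the transgenes took up both Rosa26 alleles, which leaves 1 for IGF2BP1. Per the study, most IGF2BP1 tumors lay in the lower abdomen, whereas adrenal and spinal tumors were common with both transgenes. Mice with both transgenes also had the shorter median survival. MYCN, IGF2BP1 dose, tumor site and age cannot be told apart here. All 9 tested genes had a lower mean in TIM, by 0.37 (Mcm10) to 0.76 (Mcm6) on the log2(FPKM + 1) scale, and none passed the threshold, whereas 12.9% of all tested genes were called lower. Unadjusted p-values were below 0.05 for 3 genes. Mcm4 came closest, with a difference of -0.61 (SE 0.23, adjusted p = 0.0602), followed by Mcm6 with -0.76 (SE 0.34, adjusted p = 0.110) and Cdt1 with -0.66 (SE 0.30, adjusted p = 0.118). No TIM library exceeded the highest TI library for any of the 10 genes. Mcm4 was called without TI d (0.0258), TI f (0.0396), TIM c (0.0248), TIM f (0.0317) or TIM g (0.0475), and Mcm6 without TI d (0.0458). The difference of Orc1 was -0.16 (exact permutation, two-sided, p = 0.106, adjusted p = 0.133).

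In TIM vs AGM, which compares tumors with both transgenes and tumor-free glands with MYCN, 5 of the 6 subunits rose, and 31.9% of all tested genes were called higher. Cdt1, Cdc6 and Mcm10 were called as well, but entered the fit through the tumors alone. Mcm7 had a difference of 1.64 (SE 0.41, adjusted p = 0.00135), Cdt1 of 1.67 (SE 0.34, adjusted p = 0.000221) and Mcm5 of 1.49 (SE 0.47, adjusted p = 0.00892). Mcm3 did not pass, with 0.98 (SE 0.46, adjusted p = 0.0672). Orc1 rose as well, by 0.20 (exact permutation, two-sided, p = 0.0109, adjusted p = 0.0303). Mcm2 and Cdc6, with adjusted p of 0.0357 and 0.0380, were each called in 4 of the 13 fits without 1 library, with adjusted p up to 0.0723 and 0.075. Mcm3 was called without TIM b (0.0359) or TIM e (0.0126). TIM e lay among or below the AGM libraries for all 10 genes.

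The interaction, TIM vs AGM minus TI vs AG, tested whether tumors differed from glands by the same amount with MYCN as without it. Both of its terms set tumor against gland, and the IGF2BP1 dose differs between them, so MYCN cannot be told apart from that dose. It lay between -0.42 (Cdc6) and 0.24 (Mcm2), and none of the 9 genes was called by limma or had an unadjusted p below 0.05, with adjusted p of 0.543 to 0.985, whereas 3.85% of all tested genes were called higher and 6.15% lower. The confidence intervals were wide, for Mcm5 from -1.56 to 1.48, so a difference of that size in either direction was not detectable with these libraries.

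The licensing genes varied widely among tumors of the same group. The mean sum of Mcm2 to Mcm7 was 42.1 ± 23.9 FPKM in TI and 26.7 ± 16.7 FPKM in TIM (SD, n = 8 each). The sum ran from 9.49 to 85.3 FPKM in TI, 8.99-fold, and from 2.64 to 46.4 FPKM in TIM, 17.6-fold, but only 1.13-fold in AG and 1.33-fold in AGM. The genes moved together. TI c was the highest TI library for all 10 genes, TI d the lowest and TI f the second lowest for all 10. Among TIM, c was the highest for 8 genes and g for 2, e was the lowest for all 10 and b the second lowest for 9. Over the 16 tumor libraries, Pearson's r of log2(FPKM + 1) between 2 licensing genes ranged from 0.792 to 0.995 over the 45 pairs, with a median of 0.937. The range was 0.781 to 0.991 within TI and 0.735 to 0.997 within TIM. These libraries share their scaling and depth with every gene, and the values are a description.

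Marker genes also differed in the tumors at the bottom of this order. TIM e, with 2.64 FPKM for the 6 subunits, had the highest Th (1889 FPKM), Dbh (593 FPKM), Chga (1266 FPKM) and Chgb (805 FPKM) of all tumor libraries, which encode the first enzyme of catecholamine synthesis, dopamine beta-hydroxylase and the granins of secretory granules. TIM b, with 7.47 FPKM for the subunits, came next in TIM, with 1514 FPKM of Th and 1016 FPKM of Chga. In TI, f had 15.8 FPKM for the subunits and the highest Th, Dbh and Chga of that group, at 235, 246.0 and 926 FPKM. TI d, with 9.49 FPKM for the subunits, was second for Th and Dbh, at 181 and 106 FPKM, but behind 3 other TI libraries for Chga, at 102 FPKM.

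Other lineages also differed in these libraries. TIM e and TIM a held the Schwann cell gene Sox10 at 15.3 and 8.23 FPKM, against 0 to 1.19 FPKM in the other TIM libraries. TI d had the highest endothelial Pecam1 (6.86 FPKM) and the highest Col1a1 (39.1 FPKM) of the tumors. The part of these cell types in the licensing values was not tested. Without TIM a and TIM e, 3 of the 9 genes were called in TIM vs AG, where 2390 of all 10171 genes were called higher. Mcm7 was the added one (difference 1.23, adjusted p = 0.0226), and Cdt1 and Mcm10 had entered through the tumors alone. All 6 subunits were called in TIM vs AGM in that fit, where 3333 of all genes were called higher.

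**Figure D3:**
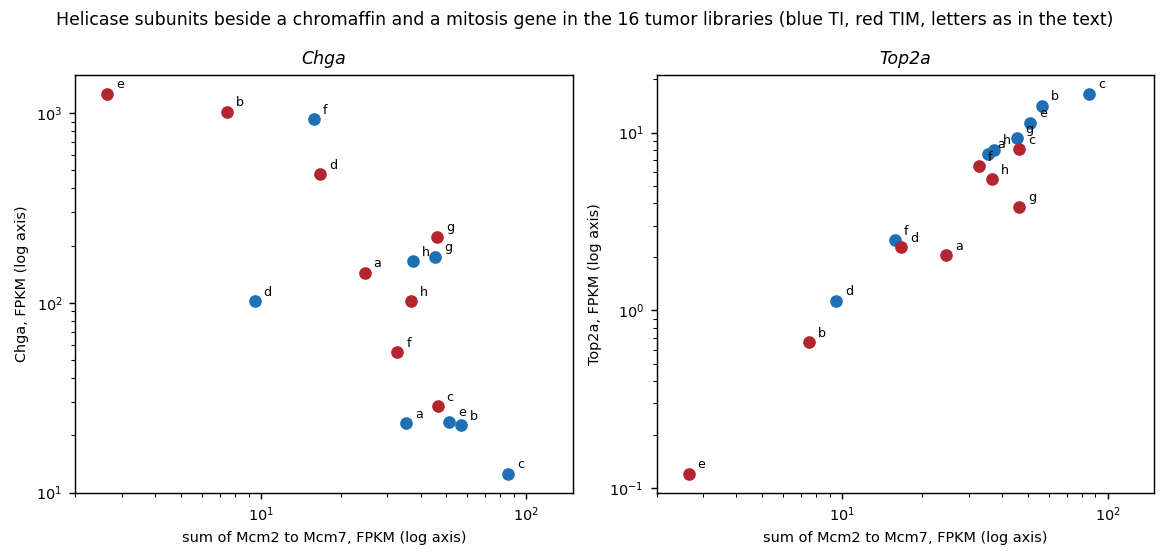
Summed FPKM of Mcm2 to Mcm7 (horizontal, log axis) against Chga (left) and Top2a (right, both log axes) in the 16 tumor libraries, TI in blue and TIM in red, each with its letter. TIM e lies at 2.64 FPKM of the subunits with 1266 FPKM of Chga and 0.121 FPKM of Top2a, and TI c at 85.3 FPKM with 12.6 and 16.6 FPKM.

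The proportions of the 6 subunits, which are present in equal number in the assembled ring, differed between mRNAs and between groups. Per length, Mcm7 made up 20.8% ± 0.189 of the summed FPKM in AG, 24.8% ± 2.23 in AGM, 25.9% ± 2.52 in TI and 32.0% ± 6.50 in TIM (SD, n = 3, 5, 8 and 8). Mcm4 was the smallest part in AGM, TI and TIM, with 10.2% ± 2.98, 9.09% ± 3.27 and 7.51% ± 1.55, and 13.1% ± 0.402 in AG, where Mcm5 was slightly below it with 12.7% ± 0.672. The lowest Mcm4 share in AG, 12.6%, was above every TIM value, whose highest was 9.41%. Mcm5 made up 12.3% ± 0.667 in AGM and 18.7% ± 3.22 in TI. The highest Mcm7 share, 45.8%, was that of TIM e, the tumor with the lowest sum, where Mcm3 contributed 6.31%. These shares were not tested.

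**Figure D4:**
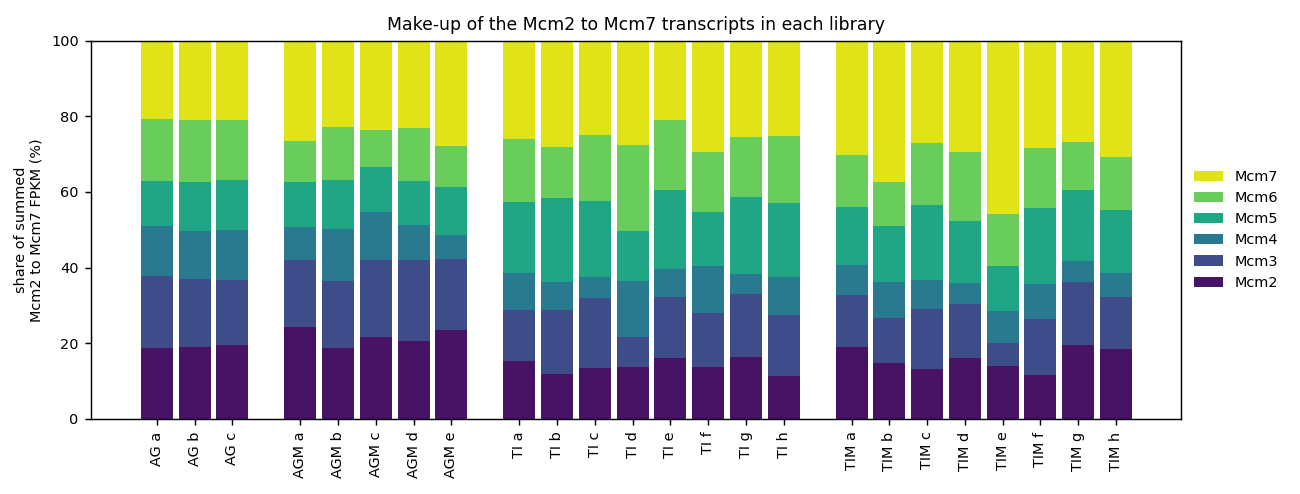
Share of each subunit in the summed FPKM of Mcm2 to Mcm7 (vertical, percent), 1 bar for each library. The Mcm7 part ranges from 20.6% to 21.0% in AG and from 26.8% to 45.8% in TIM.

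The other genes of the pathway were taken from lists of related function. Of 4 tested subunits of the origin recognition complex and its partner Lrwd1, Orc6 and Lrwd1 rose in TI vs AG and the median difference was 0.23. Lrwd1 reached 1 FPKM in tumors alone, and 24.6% of all tested genes were called higher. Orc6, the subunit at 1.09 ± 0.115 FPKM in AG (SD, n = 3) against 4.13 ± 1.64 FPKM in TI (SD, n = 8), had a difference of 1.24 (SE 0.28, adjusted p = 0.000816). In TIM vs AG none of these genes rose and Orc3 fell.

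Of 6 tested genes that restrain Cdt1 or share its ligase, Gmnn rose in TI vs AG and 3 others fell. Over all 10171 tested genes, 2505 were called higher and 2822 lower. Gmnn, the inhibitor of Cdt1, had a difference of 1.36 in TI vs AG (SE 0.44, adjusted p = 0.0129) and of 1.01 in TIM vs AGM (SE 0.37, adjusted p = 0.0217), but did not pass in TIM vs AG (0.74, adjusted p = 0.170). The ratio of Cdt1 to Gmnn FPKM was 0.681 ± 0.178 in AG, 0.549 ± 0.178 in AGM, 1.39 ± 0.205 in TI and 1.62 ± 0.607 in TIM (SD), with the lowest TI value, 1.08, above the highest AG value, 0.881, but the lowest TIM value, 0.542, within AG. Cul4a, the scaffold of the ligase, fell in TI vs AG by 1.57 on the log2(FPKM + 1) scale, and Kmt5a, a histone H4 methyltransferase that the same ligase degrades in S phase, fell by 1.38 (adjusted p = 2.9e-10 and 4.09e-07). Both fell in TIM vs AG too, and in AGM vs AG (adjusted p = 1.71e-05 and 8.22e-06). Ddb1, the adaptor of the ligase, fell by 0.35 in TI vs AG (adjusted p = 0.0358). Dtl and Skp2, which select Cdt1 as a substrate, had means of 0.504 and 0.417 FPKM in TI and 0.386 and 0.366 FPKM in TIM, against 0.0416 and 0.0956 FPKM in AG, and were below the filter and not tested. Cul4b and Fbxo31 were not called in TI vs AG.

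Genes that act after licensing were in part too low in glands for their counts to be read. In TI vs AG, 7 of 9 tested genes of helicase activation and origin firing were called higher, but 8 of the 9 reached 1 FPKM in tumors alone. Over all tested genes 24.6% were called higher. Lists in which most genes entered through the tumors alone cannot be read against that share. Of the 3 genes of this list with the highest mean level, Gins4, at 4.61 ± 0.396 FPKM in AG (SD, n = 3), did not pass (0.077, adjusted p = 0.851), whereas Cdc45, part of the active helicase, rose by 1.09 (adjusted p = 0.0149) and Gins1 by 1.22 (adjusted p = 0.00892). Cdc45 and Gins1 were among the genes that had entered through the tumors alone. Of 3 fork protection genes, Clspn and Timeless were called higher, but both had entered through tumors alone, so these calls are not a result. Tipin, the third, was 1.73 to 1.87 FPKM in AG and did not pass (0.54, adjusted p = 0.210). Of 18 polymerase, clamp and loader genes, 5 of which had entered in that way, 9 rose and Rfc1 fell. Lig1, which seals Okazaki fragments, rose by 1.86 (adjusted p = 0.000222), whereas Pcna, the sliding clamp, did not pass (0.77, adjusted p = 0.227), nor did Pold2, a subunit of polymerase delta (0.16, adjusted p = 0.555). Of 13 other G1/S genes 11 rose, but 10 of the 13 had entered through tumors alone, so this count is not a result. Rrm2, a subunit of ribonucleotide reductase that was below 1 FPKM in all glands, rose by 3.14 (adjusted p = 0.00176). E2f1 itself did not pass (0.18, adjusted p = 0.784).

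Mitosis genes were near the lower end of detection in glands. Of the 18 tested ones, 17 reached 1 FPKM in tumors alone, so that their counts against glands are not given. Top2a, which untangles DNA, was 0.108 ± 0.0413 FPKM in AGM against 0.331 ± 0.0744 FPKM in AG (SD). In TIM vs TI all 18 had a lower mean in TIM, with a median difference of -0.75, and 8 were called, against 12.9% of all tested genes called lower. The median was -0.63 for Mcm2 to Mcm7, all of which were lower too, and the difference between the lists was not tested. In all, 41 tested genes work in replication and are not members (the lists without the mitosis and the other G1/S genes). Of these, 16 reached 1 FPKM in tumors alone, so counts against glands are a description. Counts over all 10171 tested genes are given in brackets. In TI vs AG 21 rose and 4 fell (2505 and 2822), and in TIM vs AG 2 rose and 4 fell (2293 and 2897). In AGM vs AG none rose and 6 fell (1488 and 1420). Those 6 were near the 14.0% called lower over all tested genes. In TIM vs TI none rose and 12 fell (1017 and 1315), and in TIM vs AGM 28 rose and 2 fell (3241 and 3398).

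The genes most like the licensing genes were sought over the 16 tumor libraries, by Pearson's r of log2(FPKM + 1) with the mean over the 9 tested members. Of 10162 other genes, Kif2c (r = 0.989), Ncaph (0.987), Dsn1 (0.980), Aurka (0.979) and Pclaf (0.978) were highest. They encode a kinesin that depolymerizes microtubules, a condensin subunit, a kinetochore protein, a mitotic kinase and a PCNA-binding factor. In all, 189 genes (1.86%) had r above 0.9. Pcna was at rank 77 (0.941), Mki67 reached 0.871 and Gmnn 0.864. The lowest were Cpe (-0.951), which trims peptide hormones, Nucb1 (-0.946), a calcium-binding protein of the Golgi, and Mdh1 (-0.939), the cytosolic malate dehydrogenase. Th and Chga had -0.792 and -0.809. Mouse Mycn had 0.568 over all tumors, 0.757 within TI and 0.0631 within TIM. All these values come from the same 16 libraries and are given as a description.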

How the data were processed

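RNA-seq of 24 mouse samples (AG, n = 3; AGM, n = 5; TI, n = 8; TIM, n = 8) was analysed from 1 table for the whole series. Per the labels and the study's methods, the authors trimmed reads with cutadapt 2.8, aligned them with HISAT2 2.1.0 to mm39, counted them with featureCounts 2.0.0, ran ComBat-seq on the counts to remove a batch effect and applied TMM factors from edgeR 3.40. Deposited were FPKM values per gene and library with the gene length. A further 9 columns held the authors' own fold changes, p-values and FDR and were not used. Columns were assigned to groups by name. FPKM times gene length came out as whole multiples of 1 step per library (tolerance 0.01 reads), which gave back the corrected reads behind a value. Corrected reads are not the sequencing depth, and statements on them cover counting error only.

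limma 3.58.1 (lmFit, eBayes with an intensity trend, R 4.3.3) was applied to log2(FPKM + 1) for 10171 genes that reached 1 FPKM in 3 or more libraries, with all 24 libraries in 4 groups and Benjamini-Hochberg adjustment over all tested genes (threshold 0.05). The scale with a pseudocount of 1 FPKM understates changes of low genes. The labels did not say more on how samples of a group were related, and p-values measure the spread between these samples. On simulated data, 200 of 10171 genes were changed by 2 on the log2 scale. Of these, 95% were recovered for TI vs AG, 97.5% for TIM vs AG and 93% for AGM vs AG. Of the calls, 7.77%, 4.41% and 6.06% were false. The simulation gave all 4 groups the same spread for a gene, whereas the median variance was 0.00282 in AG and 0.0986 in TIM. These rates therefore do not carry over to the real groups. Among the members, only Cdt1 in TI vs AG, at 2.01, differed by as much as 2. Orc1, below the filter, was compared by two-sided exact permutation of the difference in means. Alternatives were a pseudocount of 0.1, other filters, fits of the compared groups alone, FPKM recomputed from reads outside the 126 genes above 1000 FPKM, limma-voom on recovered reads, group-specific variance weights, and leaving out libraries. The members and the gene lists were chosen with earlier results of these data known. From each list, the 3 tested genes of highest mean FPKM and all genes that act on Cdt1 could be named with values, and the 5 most and 3 least similar genes by Pearson's r. Mki67, Th, Chga, Mycn and single marker genes were added after their values were seen. Promoter windows came from RefSeq (GRCm38.p6) and gene positions from GENCODE M39.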

Additional observations from a re-analysis of the deposited data

Results flagged for a closer look

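Cdt1 in AGM had 1 library far from the other 4. AGM d was at 0.504 FPKM (137 reads), whereas the others lay between 0.354 and 0.377 FPKM (90 to 102 reads). AGM d was also the highest AGM library for 8 of the 10 licensing genes. It still lay below every AG library for Cdt1, whose lowest was 0.630 FPKM. Among the 30 sets of values examined, 10 genes in AGM, TI and TIM, this was the only such case, and chance gives about 1 in 20. Its cause was not tested.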

How the results depend on the processing

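The number of licensing genes called moved with the settings, and the cause was not tested. Counts for tumors against glands include Cdt1, Cdc6 and Mcm10, which passed the filter through the tumors alone. These counts are given as a description. In TI vs AG it was 6, of which 3 were subunits (2505 of all 10171 genes higher). It was 2 with limma-voom on recovered reads (2048 higher) and 9 with group variance weights (3527 higher). It was 1 when 1 FPKM was required in every library, where Mcm7 was the only licensing gene tested (815 of 3464 genes higher). Without 1 library it was 3 to 7, 3 being without AG b (2022 higher) and 7 without TI d (2501 higher). In TIM vs AG it was 2, Cdt1 and Mcm10, and 0 subunits (2293 of all genes higher). It was 1 without a filter on low values (2707 of 21833 genes higher), with only the compared groups (1838) or with recomputed FPKM (1953). It was 0 with voom (1525 higher) or the strict filter (682 of 3464) and 5 with group variance weights (3109 higher). Without 1 library it was 1 to 3, 1 being without AG a, AG b, AG c, TIM a, TIM c, TIM f, TIM g or TIM h. In AGM vs AG it was 0 (1420 of all genes lower), but 7 with only the compared groups (3343 lower) and 6 with group variance weights (3583 lower). It was 1 (Mcm4) with recomputed FPKM (3475 lower) or voom (3627 lower), and 0 in every fit without 1 library. In TIM vs TI it was 0, but 1 (Mcm4) with recomputed FPKM (1949 of all genes lower) or voom (1806 lower). Without 1 library it was 0 to 2, 2 being without TI d (1478 lower). In TIM vs AGM it was 8, of which 5 were subunits (3241 of all genes higher). It was 5 with voom (3915 higher), 1 with the strict filter (1086 of 3464 higher) and 6 to 9 without 1 library. The interaction gave 0 in every setting run. Variance weights and the leaving out of TIM a and TIM e were chosen after seeing the data.

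Signs changed for 6 genes, none of them called in the comparison concerned. Mcm3 in TIM vs AG was -0.12 with voom. Mcm4 in TIM vs AG was 0.12 without TIM a and TIM e and lay between -0.16 and 0.11 without 1 library. Mcm10 in AGM vs AG was -0.0029 with a pseudocount of 0.1, -0.028 with recomputed FPKM and -0.61 with voom, and lay between -0.018 and 0.027 without 1 library. In the interaction, Mcm5 was 0.24 with a pseudocount of 0.1, 0.078 with recomputed FPKM and 0.65 with voom, and Cdt1 was 0.28 with voom. Without 1 library the interaction lay between -0.30 and 0.23 for Mcm5, -0.21 and 0.32 for Mcm3, and -0.00076 and 0.46 for Mcm7.

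Recomputed FPKM and voom moved the median of all tested genes, to -0.0891 and -0.225 in TIM vs AG, -0.262 and -0.497 in AGM vs AG, -0.0798 and -0.165 in TIM vs TI and 0.211 and 0.349 in TIM vs AGM. With recomputed FPKM, 757 genes were called higher and 1949 lower in TIM vs TI (1017 and 1315 on the deposited scale), 4190 and 2644 in TIM vs AGM (3241 and 3398), and 1026 and 499 in the interaction (392 and 626). With voom, 1525 and 3311 were called in TIM vs AG (2293 and 2897). Counted in reads, which favor long genes, Mcm2 rather than Mcm7 was the largest part of the subunits in AG, 28.4% against 19.8%. No paired analysis was possible because the columns of the table carry no replicate number that the labels share between groups. Cdc6, Mcm10 and Orc1 rest on at most 106 reads per library in glands, and AG has only 3 libraries.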
